A study of Homo sapiens with 6 samples.

Results

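Most of the genes described here encode subunits of mitochondrial complexes II, III, IV and V or the electron carrier cytochrome c. They were taken by symbol from the table of transcript abundance, leaving out pseudogenes, which gave 56 of 22830 genes. The symbols also take in genes for linked proteins, such as the inhibitor gene ATP5IF1. By symbol, 4 genes were counted with complex II, 10 with complex III, 19 with complex IV and 22 with complex V, with CYCS as the cytochrome c gene. The nucleus encodes 50 and mitochondrial DNA encodes 6.

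The respiratory chain passes electrons from succinate (complex II) and from complex I to ubiquinone, on to complex III, cytochrome c and complex IV, where oxygen is reduced. Complexes I, III and IV pump protons, and complex V, the ATP synthase, uses the gradient to make ATP. Complex II is built from nuclear genes alone, whereas complexes III, IV and V join nuclear subunits, made in the cytosol and imported, to a core made inside the mitochondrion. The mitochondrial mRNAs are cut from long transcripts of the organelle genome and carry short poly(A) tails.

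The cells were IMR-32, a human neuroblastoma line of long standing, labelled wild type, and their poly(A) RNA was sequenced. The cells had been plated for 24 h and then received DMSO, the solvent, or 25 nM PTC-028 for 24 h, with 3 libraries per group. PTC-028 is known for reducing BMI1, which belongs to Polycomb repressive complex 1, and the series title names MYCN amplification and the p53 pathway. Levels are TPM, a transcript share that is corrected for gene length and scaled to a fixed total per library, so read depth is unknown. Whether the libraries came from separate cultures is not given in the sources used here, so p-values reflect only how these libraries vary, which could be technical variation alone.

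Of the neuroblast markers, HAND2 lay between 484 and 544 TPM over the 6 libraries with overlap. MYCN lay between 1059 and 1109 TPM with DMSO and between 1118 and 1186 TPM with PTC-028, and it, CHGA, CHGB and GATA3 were higher with no overlap. Over all genes tested, 13.6% were higher with no overlap. TH and DBH, enzymes of catecholamine synthesis, were low, at 8.97 to 13.8 TPM and 3.17 to 4.33 TPM, and overlapped between the groups. Not every neuroblast marker is named here. Of 12 mesenchymal or Schwann cell markers 4 had a mean under 1 TPM, and the sum lay between 465 and 493 TPM with DMSO and between 520 and 538 TPM with PTC-028, most of it VIM. Of 7 measured blood and endothelial markers 5 had a mean under 1 TPM, with a sum between 5.30 and 9.37 TPM. In the test described below 0 of 7 tested mesenchymal or Schwann cell markers passed in limma, with 2 higher at an unadjusted p under 0.05, and 0 of 2 tested blood and endothelial markers did, with 0 at that level. The shares of all genes tested were 2.10% passing and 10.2% higher at that level. GATA3 passed as higher (log2 fold change 0.35, limma adjusted p = 0.0184). Removing DMSO replicate 1, or any 1 PTC-028 library, ended that call (adjusted p from 0.0293 to 0.0796 over the 6 removals), as did a fit with no trend (0.0909) and the replicate block (0.0971). The part of these markers in the results below was not tested.

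Subunit mRNAs were abundant in both groups. Together the 56 genes held 4.68%, 4.25% and 4.25% of all TPM under DMSO, against 4.43%, 4.53% and 4.68% under PTC-028, with overlap. The 6 mitochondrial genes carried more of this than the 50 nuclear genes. MT-CO2 ranked number 2 by mean TPM among all 22830 genes, MT-CO1 number 7 and MT-CO3 number 20, and the highest nuclear member, COX6A1, ranked number 122.

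**Figure D1:**
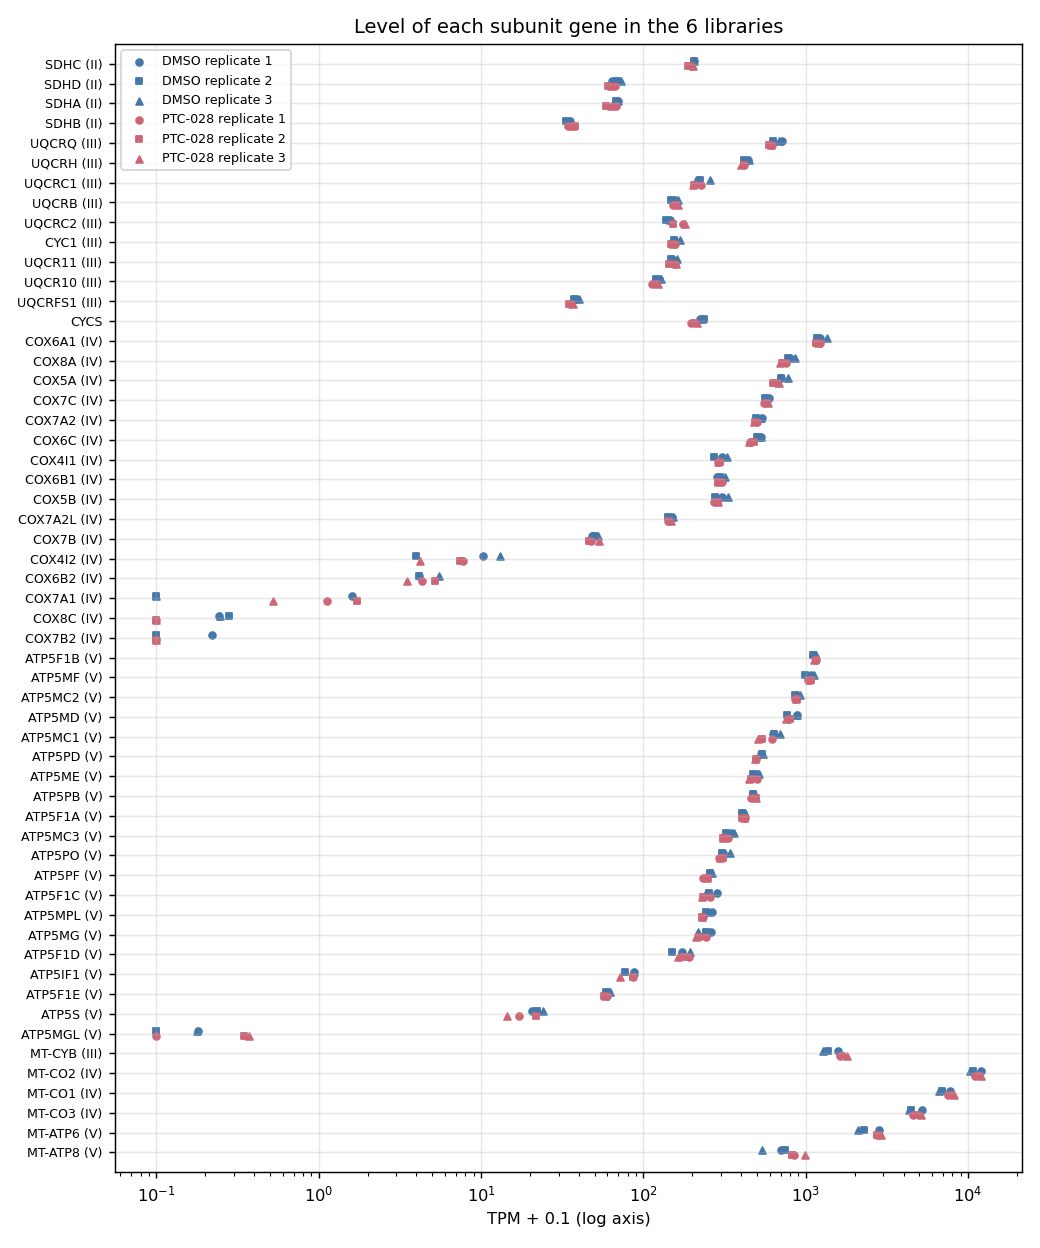
TPM + 0.1 on a log axis for each of the 56 genes, with the complex in brackets, DMSO libraries in blue and PTC-028 libraries in red, 1 marker shape per replicate number. Most nuclear genes lie between about 35 TPM (SDHB) and 1247 TPM (COX6A1), most mitochondrial genes lie higher, and a few tissue-specific forms lie near 0.

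No subunit gene passed the test. Of the 56 genes, 53 reached 1 TPM in 3 or more libraries and were tested with limma on log2(TPM + 1), with p-values adjusted by Benjamini-Hochberg over all 13554 genes tested and a threshold of 0.05. The count was 0 in either direction, where 2.10% of all genes tested passed. At an unadjusted p under 0.05, 5 members were higher, 4 of them mitochondrial, and 8 were lower, all nuclear. The background at that level was 17.7% of genes, 10.2% higher and 7.55% lower. The smallest adjusted p of any member was 0.111, for COX6C, and with other settings or with 1 library left out it went no lower than 0.0563, for MT-ATP6 without DMSO replicate 1.

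For 49 of the 53 tested genes the 95% confidence interval of the change lay within 1.5-fold in either direction, as it did for 10648 of all 13554. The 4 others were COX4I2, COX7A1, ATP5S and MT-ATP8, of which COX4I2 and COX7A1 were at low levels. None of the differences between members given below passed the test.

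Most nuclear members lay below 0 and the mitochondrial members above it. Of the 47 tested nuclear genes 39 had a log2 fold change below 0, against 42.4% of all genes tested, and their median was -0.08 where that of all genes was 0.03. For the 6 mitochondrial genes every log2 fold change was above 0, and the median was 0.19. After quantile normalisation that of MT-CO1 was 0, and without DMSO replicate 3 that of MT-CO3 was just below 0. Groups did not overlap for 12 nuclear genes that were lower and 1 that was higher, and for 2 mitochondrial genes that were higher. Over all genes tested, 24.3% had groups that did not overlap, 10.7% lower and 13.6% higher. Since PTC-028 and DMSO were compared in bulk RNA, fewer cells of a kind and less RNA per cell cannot be told apart.

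**Figure D2:**
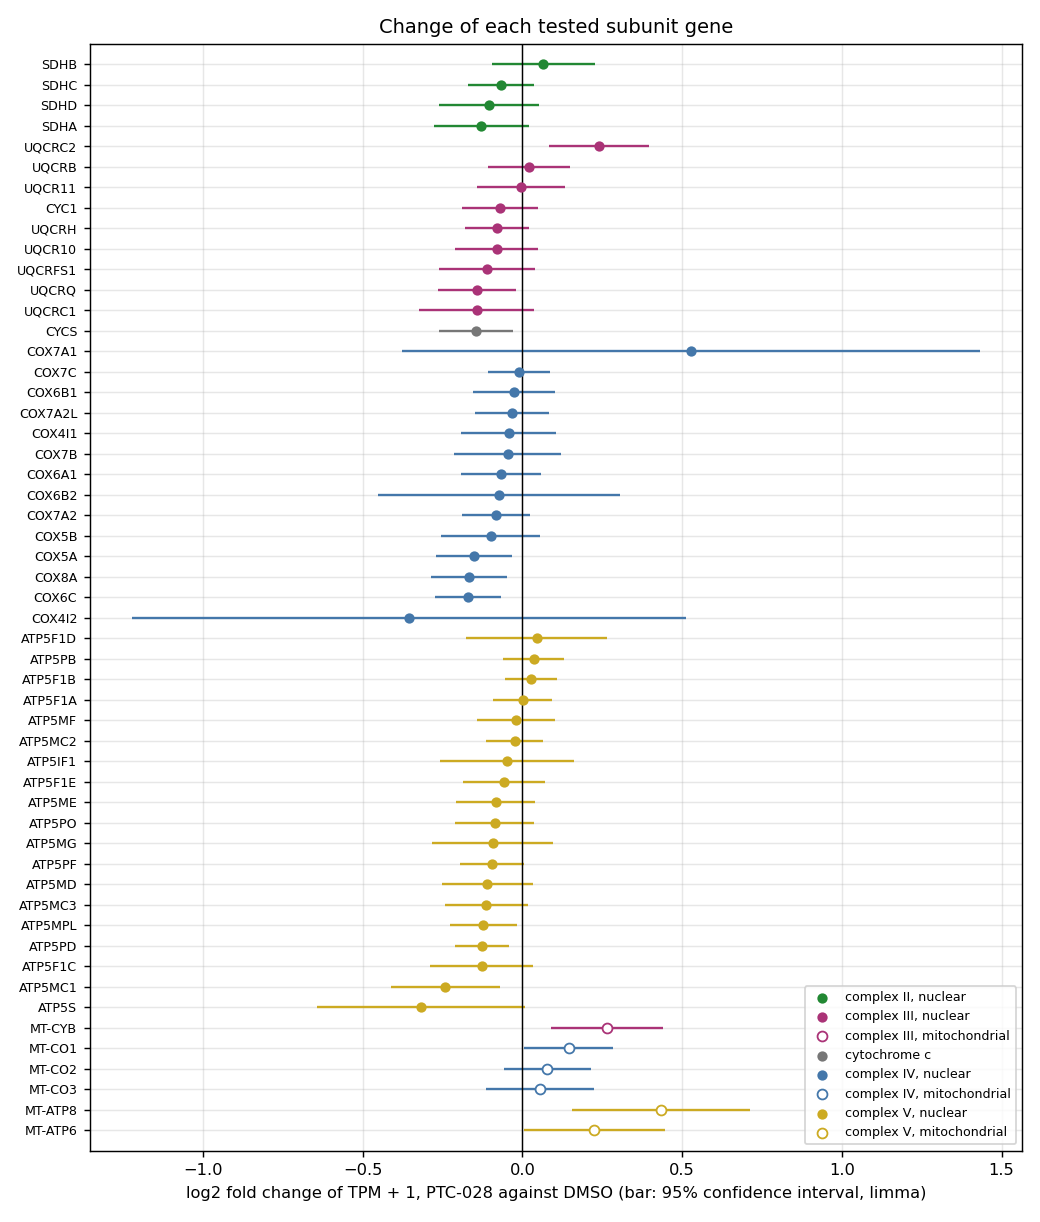
Log2 fold change of TPM + 1 with PTC-028 against DMSO for the 53 tested genes, with bars for the limma 95% confidence interval. Filled points are nuclear and open points mitochondrial genes, and the open points all lie above 0 while most filled points lie a little below it.

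Single libraries bear on this pattern. The 50 nuclear genes summed to 16786, 16052 and 17401 TPM with DMSO, against 16094, 15820.0 and 15751.5 TPM with PTC-028. The 6 mitochondrial genes summed to 30002, 26428 and 25083 TPM with DMSO, against 28216, 29446 and 31020.5 TPM with PTC-028. DMSO replicate 3 had the highest nuclear and the lowest mitochondrial sum, PTC-028 replicate 3 had the lowest nuclear and the highest mitochondrial sum, and both sums overlapped between the groups. Without DMSO replicate 3 the median log2 fold change was -0.05 for the nuclear and 0.11 for the mitochondrial genes. Without DMSO replicate 1, in which the mitochondrial genes were high, the median of the mitochondrial genes was 0.28.

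The ratio of mitochondrial to nuclear TPM over all members was 1.79, 1.65 and 1.44 with DMSO, against 1.75, 1.86 and 1.97 with PTC-028, which overlapped. With all mitochondrially encoded genes removed and the others rescaled, the median of the nuclear genes was -0.07, against -0.08 with them. Against its mean over the 6 libraries, the median nuclear member stood at 0.09 (log2) in DMSO replicate 3, the median nuclear gene of complex I at 0.12 and the median cytosolic ribosomal protein gene at 0.05, while the median of all tested genes stood at -0.04. In the PTC-028 libraries the nuclear members stood at -0.02, -0.04 and -0.04 and the ribosomal protein genes at 0.02, 0.004 and -0.008. The nuclear members and the ribosomal protein genes stood at 0.04 and -0.002 in DMSO replicate 1, and at -0.02 and -0.06 in DMSO replicate 2. The part of these genes in the results was not tested.

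**Figure D3:**
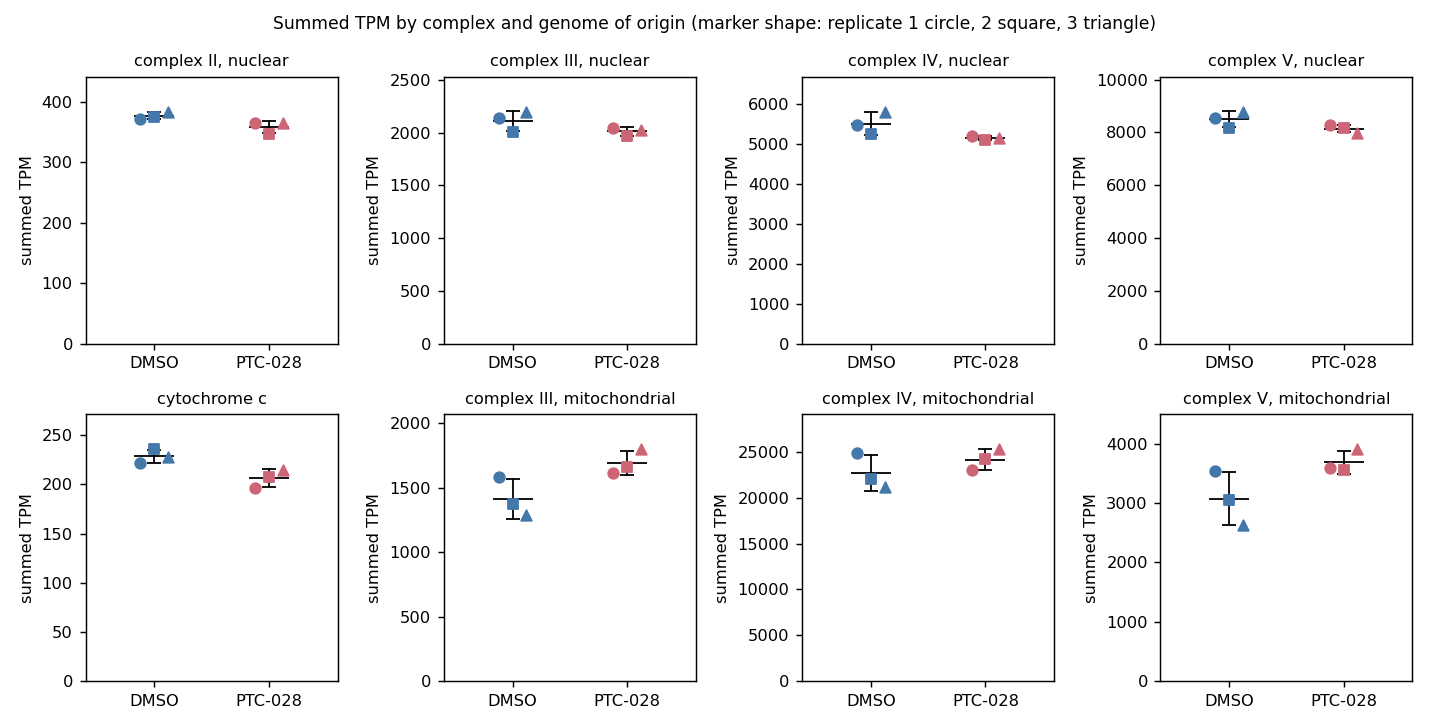
Summed TPM by complex and genome of origin in each library, with a horizontal line for the mean and bars for the SD of 3 libraries. The nuclear sums of complexes II and IV and cytochrome c do not overlap and are lower in PTC-028, and the mitochondrial sums of complexes III and V do not overlap and are higher.

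Complex II, succinate dehydrogenase, links the citric acid cycle to the chain. Its 4 genes summed to 372, 375 and 384 TPM with DMSO, against 365, 347 and 365 TPM with PTC-028, a ratio of means of 0.951 with no overlap. SDHA, the flavoprotein that oxidises succinate (chromosome 5, 218241 to 256700, GRCh38), had 69.3, 67.4 and 69.9 TPM with DMSO, against 67.3, 58.9 and 62.7 TPM with PTC-028. The highest PTC-028 value lay just below the lowest DMSO value, and the log2 fold change was -0.13 ± 0.06 (SE, limma adjusted p = 0.341), or -0.08 without PTC-028 replicate 2.

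The other 3 genes of complex II differed among themselves. SDHC, a membrane anchor with a haem, was the most abundant at 205 ± 1.42 TPM with DMSO, against 196 ± 6.52 TPM with PTC-028 (SD, n = 3 each). SDHD, the other anchor, had between 60.7 and 72.4 TPM over the 6 libraries with overlap, and SDHB, the iron-sulfur subunit, had 34.5 ± 1.16 and 36.2 ± 1.97 TPM. SDHB was thus the least abundant of the 4, and the only one with a change above 0 (log2 0.07, limma adjusted p = 0.665). In all 4 the 95% interval included 0.

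Complex III passes electrons from ubiquinol to cytochrome c. Its 9 nuclear genes summed to 2113 ± 97.7 TPM with DMSO, against 2013 ± 43.7 TPM with PTC-028 (SD, n = 3 each), and the groups overlapped. UQCRC1 and UQCRC2 encode the paired core proteins, and they stood on opposite sides of 0. UQCRC2 (chromosome 16, 21952660 to 21983660) had 145, 137 and 145 TPM with DMSO, against 174, 153 and 179.7 TPM with PTC-028. All PTC-028 libraries were above all DMSO libraries, the one nuclear member of which this was so. Its log2 fold change was 0.24 ± 0.07 (SE), with a 95% interval from 0.08 to 0.40 (limma adjusted p = 0.132).

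UQCRC1 (chromosome 3, 48599002 to 48610976) had 217, 223 and 259 TPM with DMSO, against 227, 204 and 200.5 TPM with PTC-028, which overlapped (log2 fold change -0.14, limma adjusted p = 0.381). Without DMSO replicate 3 the change was -0.07. The ratio of UQCRC2 to UQCRC1 was 0.669, 0.615 and 0.560 with DMSO, against 0.767, 0.750 and 0.897 with PTC-028. The ratios did not overlap, and the pair was chosen for this after its values were seen, so no test is given.

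UQCRQ, a small subunit that touches cytochrome b (chromosome 5, 132866560 to 132868031), was the most abundant nuclear gene of complex III. It had 709, 624 and 686 TPM with DMSO, against 621, 593 and 612 TPM with PTC-028, with DMSO replicate 2 just above the highest PTC-028 library. Its log2 fold change was -0.14 ± 0.05 (SE, limma adjusted p = 0.219). UQCRFS1, the Rieske iron-sulfur protein, had the lowest level of the 9, with 38.2, 37.2 and 40.2 TPM with DMSO, against 35.3, 34.7 and 36.9 TPM with PTC-028. UQCRH, the hinge protein, had 434 ± 16.4 and 410.2 ± 8.48 TPM. The haem protein gene CYC1 was at a log2 fold change of -0.07, and UQCRB, UQCR10 and UQCR11 lay between -0.08 and 0.02.

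MT-CYB encodes cytochrome b, the mitochondrial subunit of complex III (mitochondrial DNA, 14747 to 15887). It had 1582, 1371 and 1284 TPM with DMSO, against 1616, 1662 and 1799 TPM with PTC-028. PTC-028 libraries were higher with no overlap, though DMSO replicate 1 was close to PTC-028 replicate 1. The log2 fold change was 0.26 ± 0.08 (SE), with a 95% interval from 0.09 to 0.44 (limma adjusted p = 0.138). The ratio of MT-CYB to the sum of the 9 nuclear genes was 0.741, 0.683 and 0.584 with DMSO, against 0.788, 0.846 and 0.888 with PTC-028, again with no overlap. Mitochondrial to nuclear TPM of complex V did not overlap either (0.412, 0.372 and 0.300 with DMSO, against 0.433, 0.435 and 0.489 with PTC-028). That of complex IV overlapped, at 4.53, 4.19 and 3.64 with DMSO, against 4.42, 4.73 and 4.91 with PTC-028.

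CYCS encodes cytochrome c, which carries electrons from complex III to complex IV and, once released from mitochondria, helps to activate caspases (chromosome 7, 25120091 to 25125361). It had 222, 236 and 228 TPM with DMSO, against 197, 208 and 215 TPM with PTC-028. The PTC-028 libraries were lower with no overlap, and the log2 fold change was -0.15 ± 0.05 (SE, limma adjusted p = 0.191).

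Complex IV, cytochrome c oxidase, has a core of 3 mitochondrial subunits. MT-CO2, which takes electrons from cytochrome c, had 11972, 10677 and 10273 TPM with DMSO, against 10999, 11660.2 and 12042.5 TPM with PTC-028. MT-CO1, the subunit that reduces oxygen, had 7055 ± 584 TPM with DMSO, against 7789 ± 341 TPM with PTC-028 (SD, n = 3 each; log2 fold change 0.15, limma adjusted p = 0.264). MT-CO3 had 4659 ± 482 and 4829 ± 289 TPM. In all 3 the groups overlapped, since DMSO replicate 1 was higher than at least 1 PTC-028 library, and MT-CO3 stood at -0.00084 without DMSO replicate 3. Their sum was 22688 ± 1954 TPM with DMSO, against 24185 ± 1150.4 TPM with PTC-028.

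The 16 nuclear genes of complex IV summed to 5493, 5249 and 5811 TPM with DMSO, against 5212, 5117 and 5154 TPM with PTC-028. These did not overlap, with a ratio of means of 0.935, and DMSO replicate 2 was closest to the PTC-028 libraries. COX6C, a small membrane subunit, had the smallest p of all members (chromosome 8, 99873200 to 99894062). Its libraries had 532, 499 and 528 TPM with DMSO, against 456, 479.6 and 449 TPM with PTC-028. Every PTC-028 library was lower, with a log2 fold change of -0.17 ± 0.05 (SE) and a 95% interval from -0.27 to -0.07 (limma adjusted p = 0.111).

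COX8A, the ubiquitous form of the smallest subunit (chromosome 11, 63974607 to 63976543), had 794, 777 and 860.1 TPM with DMSO, against 752, 718 and 694 TPM with PTC-028. The groups did not overlap, and the log2 fold change was -0.17 ± 0.05 (SE, limma adjusted p = 0.153). COX5A, a subunit that binds a thyroid hormone metabolite in work on cattle enzyme, had 705, 708 and 775 TPM with DMSO, against 652, 630.2 and 686 TPM with PTC-028. It too was lower with no overlap (log2 fold change -0.15 ± 0.05, SE; limma adjusted p = 0.190). COX6A1, the most abundant nuclear gene of all complexes described, had 1247 ± 87.5 TPM with DMSO, against 1189 ± 40.5 TPM with PTC-028 (SD, n = 3 each), and its groups overlapped. NDUFA4, first assigned to complex I and now counted with complex IV, lies outside the symbols used here. It was lower with no overlap (log2 fold change -0.17, limma adjusted p = 0.132).

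**Figure D4:**
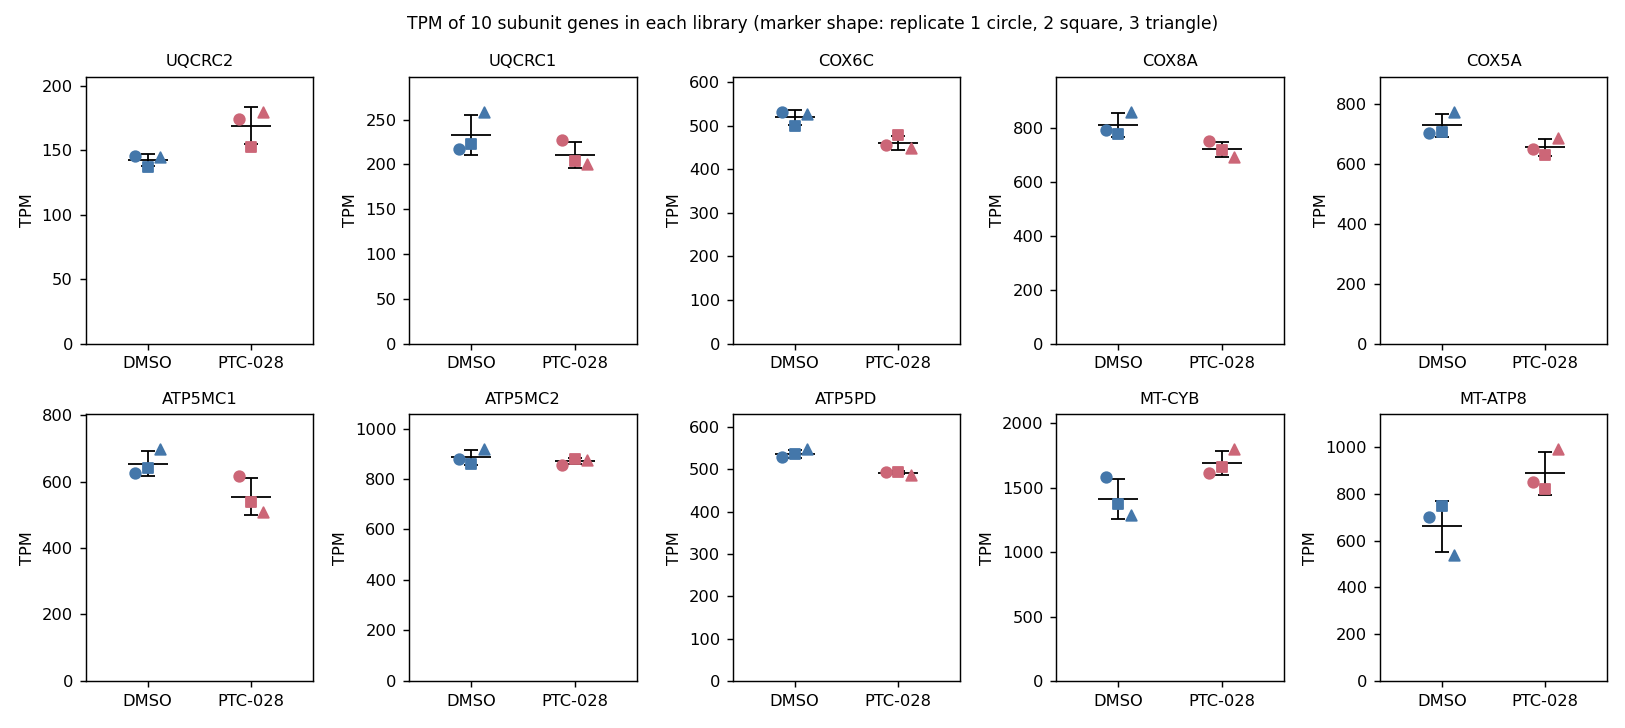
TPM of 10 subunit genes in each library, with axes from 0, a line for the mean and bars for the SD of 3 libraries. UQCRC2, MT-CYB and MT-ATP8 are higher in PTC-028 and COX6C, COX8A, COX5A, ATP5MC1 and ATP5PD are lower with no overlap. The ratio of means, PTC-028 to DMSO, runs from 0.848 for ATP5MC1 to 1.34 for MT-ATP8.

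Several subunits of complex IV exist in alternative forms, and in these cells the common form dominated. COX4I2, the form of subunit 4 known from lung and from low oxygen, gave 3.24%, 1.40% and 3.81% of the TPM of both forms with DMSO, against 2.56%, 2.41% and 1.39% with PTC-028, the rest being COX4I1. COX6B2, known from testis, gave 1.48% ± 0.163 of its pair with COX6B1 with DMSO, against 1.43% ± 0.285 with PTC-028 (SD, n = 3 each). COX7A1, the muscle form, was listed at 0 in DMSO replicates 2 and 3 and reached 1.62 TPM at most, beside 519 ± 25.6 TPM for COX7A2 in DMSO. COX8C and COX7B2 reached 0.178 and 0.119 TPM at most and were listed at 0 in every PTC-028 library. None of the 22830 genes carried the symbol COX6A2. COX7A2L, whose product joins complexes III and IV into supercomplexes, had 148 ± 5.56 TPM with DMSO, against 144 ± 3.77 TPM with PTC-028, with a 95% interval of the log2 fold change from -0.15 to 0.08.

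Complex V has a catalytic F1 head, a membrane ring of c subunits that turns, and a stalk that holds the head in place. Its 20 nuclear genes summed to 8563, 8185 and 8780 TPM with DMSO, against 8271, 8184 and 7992 TPM with PTC-028, with overlap. Its 2 mitochondrial genes summed to 3530, 3045 and 2636 TPM with DMSO, against 3583, 3561 and 3905 TPM with PTC-028, with no overlap. The F1 genes were at uneven levels per length. ATP5F1B, the catalytic beta subunit, had 1127 ± 23.9 TPM with DMSO, against 1148 ± 15.5 TPM with PTC-028 (SD, n = 3 each). ATP5F1A, the alpha subunit, had 413 ± 7.09 and 413 ± 10.2 TPM, although the enzyme holds alpha and beta in equal number. The ratio of ATP5F1B to ATP5F1A was 2.73 ± 0.0158 with DMSO, against 2.78 ± 0.0692 with PTC-028. The gamma, delta and epsilon genes ATP5F1C, ATP5F1D and ATP5F1E had 261 ± 21.2, 172 ± 21.9 and 60.6 ± 1.95 TPM in DMSO, and DMSO and PTC-028 libraries overlapped for all 5 F1 genes. For ATP5F1A and ATP5F1B the 95% intervals of the log2 fold change, -0.09 to 0.09 and -0.05 to 0.11, were the narrowest bounds on the head.

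Genes ATP5MC1, ATP5MC2 and ATP5MC3 encode the same mature c subunit with different import sequences. ATP5MC1 (chromosome 17, 48892765 to 48895871) had 625, 639.8 and 697 TPM with DMSO, against 616, 538 and 509 TPM with PTC-028. The groups did not overlap, but PTC-028 replicate 1 lay just below DMSO replicate 1. Its log2 fold change was -0.24 ± 0.07 (SE), with a 95% interval from -0.41 to -0.07 (limma adjusted p = 0.157). ATP5MC2 had 886 ± 29.5 TPM with DMSO, against 871 ± 13.2 TPM with PTC-028, and ATP5MC3 had 342 ± 20.0 and 316 ± 13.7 TPM (SD, n = 3 each), both with overlap. The share of ATP5MC1 in the TPM of the 3 genes was 33.8%, 35.2% and 35.3% with DMSO, against 34.1%, 31.1% and 30.1% with PTC-028, so its groups overlapped.

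Among the stalk and membrane genes, ATP5PD, the d subunit of the stalk, stood out for its narrow spread (chromosome 17, 75038863 to 75046985). It had 528, 535 and 547 TPM with DMSO, against 494, 494 and 487 TPM with PTC-028. All PTC-028 libraries were lower, with a log2 fold change of -0.13 ± 0.04 (SE, limma adjusted p = 0.140). ATP5MPL, a small membrane proteolipid, had 252 ± 10.5 TPM with DMSO, against 231 ± 1.99 TPM with PTC-028 (limma adjusted p = 0.227), and ATP5PF, a stalk subunit, had 259.9 ± 3.11 and 243 ± 8.10 TPM (limma adjusted p = 0.306), both with no overlap. ATP5MF, a membrane subunit, had 1067 ± 72.9 and 1050.0 ± 23.8 TPM with overlap. The inhibitor gene ATP5IF1, whose product stops ATP hydrolysis when the gradient is lost, had 83.8 ± 6.39 and 81.2 ± 8.71 TPM. ATP5S, named coupling factor B in cattle, had 22.1 ± 1.73 and 17.8 ± 3.73 TPM with overlap, and a 95% interval of the log2 fold change from -0.64 to 0.01. Without PTC-028 replicate 3 its change was -0.18. ATP5MGL, a copy of ATP5MG, reached 0.272 TPM at most.

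The mitochondrial genes of complex V, MT-ATP8 and MT-ATP6, encode a peripheral and a proton channel subunit and are carried on 1 mRNA. MT-ATP8 (mitochondrial DNA, 8366 to 8572) had 699.5, 746 and 538 TPM with DMSO, against 850.4, 821 and 991 TPM with PTC-028. The PTC-028 libraries were higher with no overlap, and its log2 fold change of 0.43 ± 0.12 (SE) had a 95% interval from 0.15 to 0.71 (limma adjusted p = 0.127). MT-ATP6 (8527 to 9207) had 2831, 2299 and 2098 TPM with DMSO, against 2733, 2739 and 2915 TPM with PTC-028, with DMSO replicate 1 inside the PTC-028 range (log2 fold change 0.23 ± 0.10, SE; limma adjusted p = 0.275). The change was 0.35 without DMSO replicate 1 and 0.13 without DMSO replicate 3. The ratio of MT-ATP8 to MT-ATP6 was 0.247, 0.324 and 0.256 with DMSO, against 0.311, 0.300 and 0.340 with PTC-028, which overlapped.

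These genes share 46 bases, which are 22.2% of MT-ATP8 and 6.75% of MT-ATP6, so reads from there cannot be told apart. The stretch is shown because it limits the MT-ATP8 values. It is read from GENCODE 29 transcripts (GRCh38, chrM:8527-8572, plus strand), 5′ to 3′, with the start codon of MT-ATP6 and the stop codon of MT-ATP8 in capitals.
MT-ATP8 and MT-ATP6: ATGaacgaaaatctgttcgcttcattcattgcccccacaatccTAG
The nuclear genome also holds copies of mitochondrial genes. MTATP6P1, a copy of MT-ATP6, was listed at 93.6, 88.3 and 85.5 TPM with DMSO, against 103, 97.5 and 135 TPM with PTC-028. The 30 such rows, copies of all the 6 genes but MT-ATP8, summed to between 88.2 and 139.7 TPM per library, and how reads were divided between them and the mitochondrial genes is not given in the sources used here. The 23 nuclear pseudogenes left out summed to between 30.3 and 52.4 TPM.

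Transcription of nuclear respiratory genes is known to depend on NRF1, on ETS family factors such as GABPA, and on YY1. RefSeq promoters (GRCh38.p14, 250 bases before to 50 after the start) were matched for 38 of the 50 nuclear members, 1 start each. The ETS letters CCGGAAG, searched on both strands, were in 15 of 38 (39.5%), against 10.3% of all 35116 promoters and 19.7% of 9878 promoters of tested genes. The NRF1 core, GCGC and GCGC around a pair of open bases, was in 11 (28.9%), against 8.32% and 16.5%. With that pair fixed as AT, a stricter NRF1 search, it was in 2 (5.26%), against 1.24% and 2.40%. AAGATGGC, for YY1, was in 5 (13.2%), against 2.89% and 5.52%. The E-box CACGTG, which MYC family proteins bind, was in 4 (10.5%), against 7.26% and 10.3%. Apart from the stricter NRF1 form, which lies within the core, no motif contains another. These sets differ: the 35116 promoters were not reduced to 1 start per gene, while the 9878 were. The 9878 were matched by symbol only, and members also by synonym. The 38 include COX8C, which was not tested and holds the NRF1 core. A match is a description of the letters and does not show binding.

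Of the 15 genes with the ETS letters, COX8A, ATP5PD, ATP5PF and UQCRQ were lower with no overlap and the other 11 overlapped. Among the 47 tested nuclear members 12 were lower with no overlap, and among all genes tested 10.7% were. Whether the letters go with lower levels was not tested. COX8A and ATP5PD are shown as examples of the first kind. Each is the 250 bases before the RefSeq start, 5′ to 3′ on the gene's strand, with the match in capitals (here as its reverse complement). For COX8A this is chr11:63974370-63974619, plus strand, and for ATP5PD chr17:75046970-75047219, minus strand.
COX8A: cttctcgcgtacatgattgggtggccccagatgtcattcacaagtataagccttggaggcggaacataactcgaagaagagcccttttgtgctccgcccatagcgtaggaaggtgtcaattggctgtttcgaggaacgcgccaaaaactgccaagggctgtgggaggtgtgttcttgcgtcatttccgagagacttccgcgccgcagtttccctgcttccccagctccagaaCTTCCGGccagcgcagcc
ATP5PD: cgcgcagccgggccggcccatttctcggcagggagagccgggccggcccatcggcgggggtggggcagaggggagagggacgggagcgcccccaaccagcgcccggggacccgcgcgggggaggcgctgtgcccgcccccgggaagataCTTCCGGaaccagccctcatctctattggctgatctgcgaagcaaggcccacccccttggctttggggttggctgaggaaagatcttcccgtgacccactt

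Genes that build or regulate these complexes gave no call. Of 44 assembly factors of complexes II to V, 0 passed in limma, with 2 higher and 4 lower at an unadjusted p under 0.05 and a median log2 fold change of -0.01. Over all genes tested 2.10% passed, and 10.2% were higher and 7.55% lower at an unadjusted p under 0.05. The lists were not tested against these shares. SCO2, which delivers copper to complex IV and is a known p53 target, had 37.1, 37.5 and 41.9 TPM with DMSO, against 35.6, 30.3 and 29.1 TPM with PTC-028. It was lower with no overlap (log2 fold change -0.29 ± 0.09, SE; limma adjusted p = 0.172). SCO2 is a sum of rows sharing the symbol, and the highest row alone gave -0.22 (limma adjusted p = 0.218). Of 15 transcriptional regulators of respiratory genes 0 passed, with 0 at an unadjusted p under 0.05 and a median of -0.03. Of 17 genes of mitochondrial RNA processing 0 passed, with 2 lower at that level and a median of 0.03.

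Over all genes tested 2.10% passed, a share that no list below was tested against, and in neighbouring pathways a few genes passed. IDH2, the mitochondrial NADP-dependent isocitrate dehydrogenase, was the 1 of 14 citric acid cycle enzymes that did, at 240 ± 13.1 TPM with DMSO, against 198 ± 4.54 TPM with PTC-028 (SD, n = 3 each; limma adjusted p = 0.0431). Its call ended with any 1 library removed (adjusted p from 0.0523 to 0.167) and with no filter, median ratio scaling, quantile normalisation, no trend and the replicate block (0.0604 to 0.150). Complex I is the entry point for NADH. Its 38 nuclear genes had a median log2 fold change of -0.08 and its 7 mitochondrial genes 0.19, and 2 nuclear genes, NDUFA6 (-0.31, limma adjusted p = 0.0232) and NDUFB3 (-0.23, 0.0449), passed as lower. NDUFB3 lost the call with any 1 library removed, and NDUFA6 lost it when DMSO replicate 1 or any of the PTC-028 libraries was left out (adjusted p from 0.0299 to 0.111). NDUFA6 is a sum of rows sharing the symbol, and the highest row alone gave -0.34 (limma adjusted p = 0.0235). It also lost the call with no trend (0.104) and with the replicate block (0.0982). NDUFB3 lost it with those (0.150 and 0.171), with median ratio scaling (0.0531), with quantile normalisation (0.0674) and without mitochondrially encoded genes (0.0518). Whether complex I differs from complexes II to V was not tested. Of 80 ribosomal protein genes and their paralogues, RPS27L passed as higher (log2 fold change 0.79, limma adjusted p = 0.000732) and RPL22L1 as lower (-0.21, 0.0279), and the median was 0.0064. RPL22L1 kept its call when DMSO replicate 3 was removed and lost it when any other library was, as it did with no filter, median ratio scaling, quantile normalisation, no trend and the replicate block (0.0521 to 0.179).

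**Figure D5:**
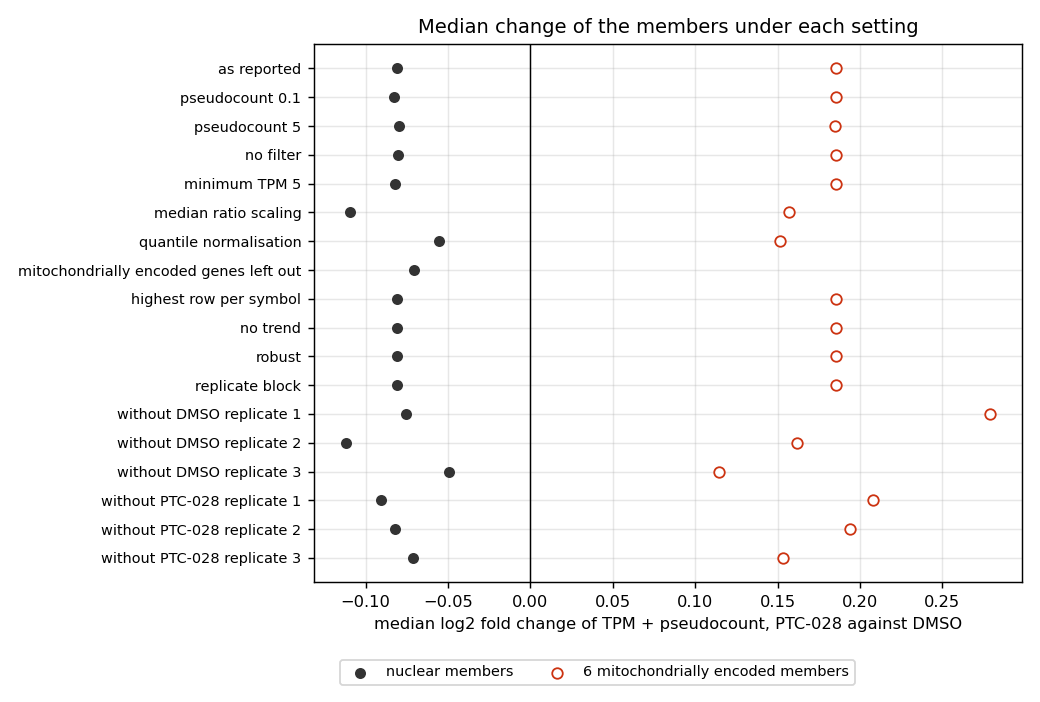
Median log2 fold change of the nuclear members (filled) and of the 6 mitochondrial members (open) under each setting, with libraries left out in turn at the bottom. The nuclear median stays between -0.11 and -0.05 and the mitochondrial median between 0.11 and 0.28, which has no value where mitochondrially encoded genes are left out.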

How the data were processed

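The authors deposited 1 table of TPM per gene for 6 libraries. Values were used as deposited, and 83 symbols that a spreadsheet had altered or left unusable were restored from, or replaced by, the gene identifier. Per the submitters' processing notes the genome was GRCh38. No source used here gives the aligner, quantifier or annotation. Rows sharing a symbol were summed, which left 22830 genes of 23555 rows, and each member had 1 row. The symbol rule leaves out names ending in P and a digit. It was applied to nuclear copies only, since the rule itself names MT-ATP6 and MT-ATP8. Coordinates are from GENCODE 29 (GRCh38) by identifier. The members and lists were chosen with earlier results of these data known.

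Genes that reached 1 TPM in 3 or more libraries were tested by limma 3.58.1 (R 4.3.3) after log2(TPM + 1), fitting treatment alone with a mean-variance trend, 2-sided, with Benjamini-Hochberg adjustment. That scale understates changes of low genes. Errors are SD for TPM and SE for log2 fold changes. The procedure was tested on simulated data. Sums and ratios over members carry no test. TPM keeps no depth, so no counting interval is given.

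The naming rule took the mitochondrial members, the SDH genes, the most abundant and smallest-p nuclear genes of each complex, the paralogue sets, SCO2, NDUFA4 and passing genes of the companion lists. Other members named, the UQCRC2 to UQCRC1 ratio and the motif spellings were chosen after values were seen. Alternatives were other pseudocounts, filters, scalings, variance models, 1 row per symbol, the replicate number as a block and each library left out. One marker of the cell type list is not reported here.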

Additional observations from a re-analysis of the deposited data

How the results depend on the processing

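No member passed in either direction under any of the 17 alternatives, and the nuclear and mitochondrial medians kept their sign wherever they could be computed. Over all genes, 284 passed, against 140 with no filter, 137 with no trend and between 80 and 250 with 1 library removed. No pairing by replicate number was visible. After each gene was centred within each group, same-numbered libraries had correlations of 0.05, -0.01 and -0.12, and other pairs ran from -0.09 to 0.10. Centring over 3 libraries ties these values together, so they cannot show that the libraries were unpaired. With the replicate block 99 genes passed and 0 members did. Changes near 0 reversed for 13 members, and the cause was not tested. With median ratio scaling ATP5F1A was at -0.028, ATP5F1B at -0.0020 and UQCRB at -0.0071. After quantile normalisation ATP5MC2 was at 0.015, ATP5MF at 0.039, COX4I1 at 0.027, COX6B1 at 0.042, COX7C at 0.048 and UQCR11 at 0.020. The change of MT-CO1 was 0 there. Without mitochondrially encoded genes UQCR11 was at 0.0055. With 1 library removed the log2 fold change ran from -0.016 to 0.019 for ATP5F1A, -0.049 to 0.13 for ATP5F1D, -0.11 to 0.043 for ATP5IF1, -0.047 to 0.00065 for ATP5MC2, -0.076 to 0.022 for ATP5MF and -0.11 to 0.016 for COX4I1. It ran from -0.065 to 0.020 for COX6B1, -0.18 to 0.045 for COX6B2, -0.035 to 0.012 for COX7C, -0.00084 to 0.14 for MT-CO3, -0.035 to 0.043 for UQCR11 and -0.016 to 0.057 for UQCRB. TPM keeps no read depth, so precision rests on 3 libraries per group.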
